A study of Mus musculus with 2 samples.

Results

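The genes described here encode the T cell receptor (TCR) complex and the proteins that carry its signal through the first steps inside the cell. There are 38 of them, chosen by symbol: the CD3 and zeta chains, coreceptors and costimulatory receptors, kinases and their regulators, adaptors, the branches towards NF-kappaB, Ras and NFAT, and the ubiquitin ligases and phosphatase-like proteins that end signalling. The platform annotation paired 35 of the 38 with a total of 65 probes, out of 23978 named probes for 16593 genes. Lck, Cblb and Itch had no paired probe in that annotation and were not analysed here. The RNA came from Bach2 KO mice (genotype Bach2 KO, C57BL/6 background, labelled male, 7 weeks old) or from WT mice (C57BL/6, labelled male, 6 weeks old), with 1 array per genotype. Both samples were splenic CD4+ CD25+ GITR+ cells, a gate for regulatory T cells, isolated by flow cytometry, and neither group received a treatment. The sources used here do not say how the Bach2 allele was made or how many mice were pooled. The comparison asks whether loss of Bach2, a bZIP transcription factor that acts largely as a repressor in lymphocytes, goes with different levels of the TCR signalling machinery in these cells.

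When the TCR binds a peptide on an MHC molecule, the Src family kinases Lck and Fyn phosphorylate the CD3 and zeta chains, which then recruit the kinase Zap70. Zap70 phosphorylates the adaptors Lat and Lcp2 (SLP-76), on which phospholipase C-gamma1 and Vav1 assemble. The phospholipase makes inositol trisphosphate, which raises calcium and activates NFAT, and diacylglycerol, which activates Rasgrp1 and protein kinase C-theta. Regulatory T cells need TCR signals both for their development in the thymus and for their suppressive activity in the periphery.

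Of 25697 probes, 10373 were detected (detection p-value under 0.01) on the Bach2 KO array and 10431 on the WT array, and 7611 genes had a probe detected on at least 1 of them. With 1 array per genotype, there was no replicate spread to test against, so no p-value is given and every difference is a description of these 2 samples. The only scatter that could be measured was the SD of the log2 difference among probes of one gene, 0.23 over the 1734 genes for which both arrays detected more than 1 probe, which does not cover error shared by all probes of a gene. No listed probe was paired with Bach2, so the array gave no check of the deleted gene. The 5 regulatory T cell markers examined (Foxp3, Il2ra, Tnfrsf18, Ctla4 and Ikzf2) were detected on both arrays. At the brightest detected probe of each they differed by -0.10 to 0.19. Over its 3 detected probes Foxp3 ran from -0.37 to 0.11, and the other probe of Tnfrsf18 read 0.32. Signals of other cells differed between the samples. All 5 detected granulocyte markers of the 6 listed were at least 1.5-fold lower in Bach2 KO cells (summed deposited intensity 592 in Bach2 KO against 2927 in WT), and so were all 3 detected red cell markers of the 5 listed (213 in Bach2 KO against 585 in WT). Of 6 B cell markers, 2 of the 3 detected were at least 2-fold higher in Bach2 KO cells (sum 1617 in Bach2 KO against 714 in WT). Most of that sum was Cd79b (1433 in Bach2 KO, 612 in WT). Cd79a was not higher in Bach2 KO (35 in Bach2 KO, 41 in WT) and was detected on the WT array only. Neither array detected Ms4a1 or Pax5. Of the NK cell and myeloid markers, 1 of 2 and 1 of 3 detected were at least 1.5-fold higher in Bach2 KO, and none was 1.5-fold lower. Of 2 CD8 T cell markers, Cd8b1 was detected on both arrays (1185 in Bach2 KO, 985 in WT) and Cd8a on neither. The sex-linked genes went against the shared male label: Xist was detected on the Bach2 KO array only, at least 7.27-fold higher than in WT, and the Y-linked Kdm5d and Eif2s3y were 6.37-fold and 3.60-fold lower in Bach2 KO. Kdm5d and Eif2s3y were still detected there, so that array held Xist and Y-linked RNA together. Uty, also Y-linked, was detected on the WT array only and was at least 2.05-fold lower in Bach2 KO. Whether mice of both sexes were pooled or a label is wrong is not known. The part of age, sex-linked RNA and other cells in the values below was not tested. In sorted bulk RNA, fewer cells of a kind and less RNA per cell cannot be told apart.

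Most of the TCR signalling machinery differed little between Bach2 KO and WT cells, and 1 gene stood far outside the rest. Of the 35 genes with a probe, 28 were detected, each on both arrays. Themis, an adaptor that binds Grb2 and in mice is needed for the positive selection of thymocytes, was 3.07-fold higher in Bach2 KO cells. Dgka, a kinase that removes diacylglycerol and so dampens Ras activation, was lower by 0.59 on the log2 scale, on the 1.5-fold line. The other 26 lay within 1.5-fold. The 1 gene at least 1.5-fold higher and the 1 gene at least 1.5-fold lower compare with 8.15% and 6.77% of all 7611 genes. Themis was also the only detected member past 2-fold, a line that 3.27% of all genes passed upwards and 1.55% downwards. The median difference (Bach2 KO minus WT, log2) was -0.07 over the 28 members, with quartiles of -0.20 and 0.02, against a median of -0.03 over all genes, with quartiles of -0.26 and 0.22. By sign, 21 members were lower and 7 higher in Bach2 KO, beside 53.2% of all genes lower. With the arrays scaled to one median instead of quantile normalized, 12 were lower and 16 higher, and the median was 0.02, so the signs of the small differences depended on the scaling. By size, 9 of the 28 differed by more than the probe SD of 0.23, of which 6 were lower and 3 higher, beside 52.5% of all genes (27.9% lower, 24.6% higher). Other genes were not matched to the members by brightness.

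**Figure D1:**
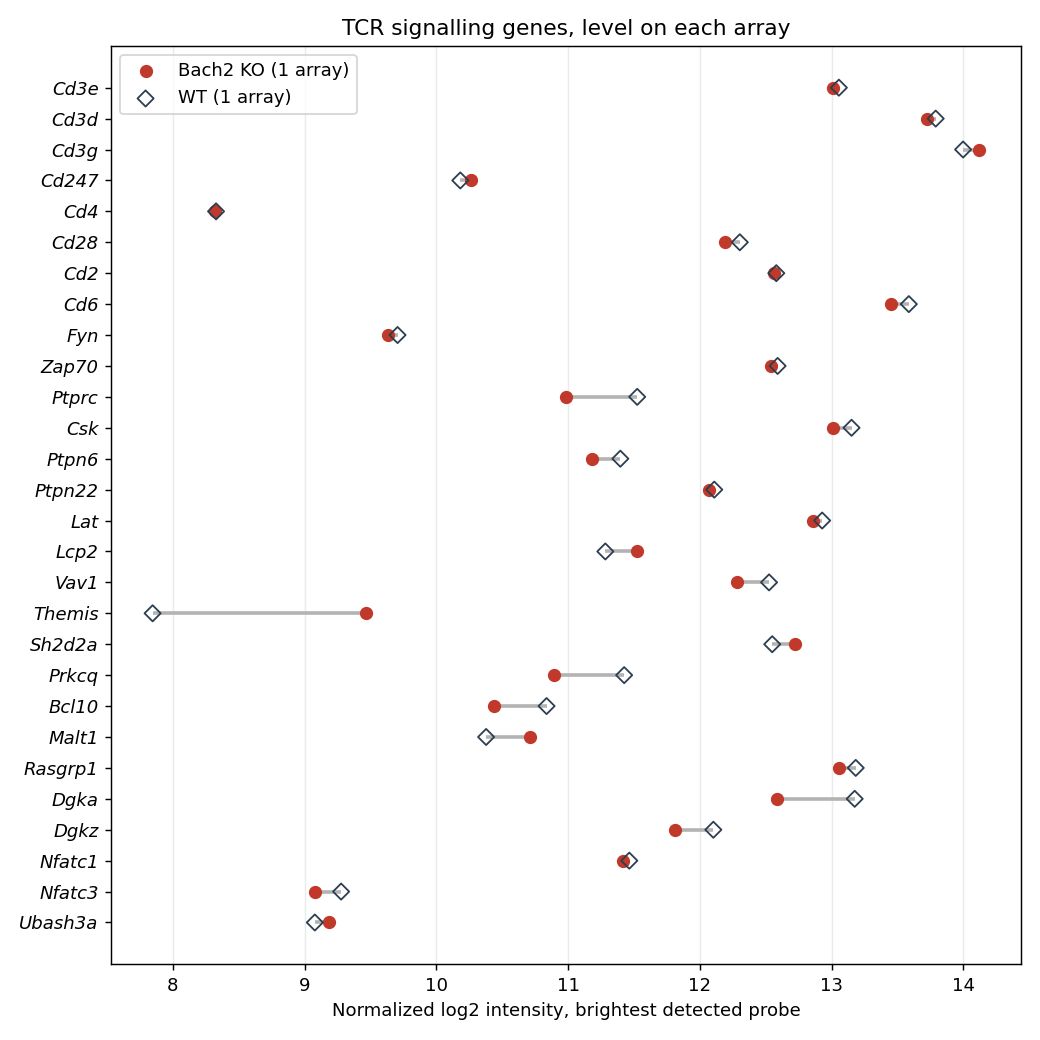
Normalized log2 intensity (x axis) of the 28 detected TCR signalling genes at their brightest detected probe, with filled circles for the 1 Bach2 KO array and open diamonds for the 1 WT array. The pairs of symbols nearly coincide for the CD3 chains, Cd4 and Cd2, and lie farthest apart for Themis, at 9.46 in Bach2 KO and 7.85 in WT. Positions of different genes on the axis are not comparable, since probes differ in efficiency.

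Themis and Dgka are the 2 members past the 1.5-fold line, in opposite directions, so the sequences upstream of both are shown. Bach2 binds with small Maf proteins to sites that contain an AP-1 core, and each 300-base window runs from 250 bases before a RefSeq transcription start to 50 bases after it (GRCm38.p6). For each gene the window of the most upstream listed start is given, chr10:28668110-28668409 on the plus strand for Themis and chr10:128745035-128745334 on the minus strand for Dgka, 5′ to 3′ on the gene's strand. Capitals mark matches to a searched motif, of which the Themis window held none.
Themis: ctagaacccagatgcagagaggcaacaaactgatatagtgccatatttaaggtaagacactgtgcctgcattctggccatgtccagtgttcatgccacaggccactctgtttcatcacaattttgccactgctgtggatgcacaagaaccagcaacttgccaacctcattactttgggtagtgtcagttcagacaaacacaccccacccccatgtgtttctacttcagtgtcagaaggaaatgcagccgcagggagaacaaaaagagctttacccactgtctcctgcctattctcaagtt
Dgka: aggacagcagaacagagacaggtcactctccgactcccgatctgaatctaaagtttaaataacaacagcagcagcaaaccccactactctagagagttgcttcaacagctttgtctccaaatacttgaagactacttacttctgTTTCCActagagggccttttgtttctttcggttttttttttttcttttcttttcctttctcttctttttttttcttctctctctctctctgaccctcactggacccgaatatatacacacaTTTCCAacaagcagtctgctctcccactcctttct
The capitals in the Dgka window are the reverse complement of the NFAT core TGGAAA, with first bases at position -106 and 16 from the transcription start.

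The motifs were searched on both strands in all listed windows of the members, 43 windows for 29 of the 38 genes, and in all 32851 windows of the table. The AP-1 core TGAGTCA was in no member window and in 5.20% of all windows. The NFAT core TGGAAA was in 8 member windows, of 6 genes (Cd3e, Cd3g, Dgka, Nfatc2, Ptpn6 and Zap70), and in 21.4% of all windows. The RUNX motif TGTGGTT was in 3 member windows (Lck, Ptpn22 and Txk) and in 5.27% of all. The ETS motif CCGGAAGT was in 1, that of Bcl10, and in 3.89% of all. These are matches of letters in a short window, not binding sites, and the absence of a match covers only that window.

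The chains of the receptor itself were at like levels in both samples. Cd3e, a chain shared by both CD3 dimers, had a normalized log2 intensity of 13.01 in Bach2 KO cells and 13.06 in WT cells, a difference of -0.05. Cd3d, its partner in one dimer, had 13.72 in Bach2 KO and 13.79 in WT (-0.07), and Cd3g, its partner in the other, had 14.12 in Bach2 KO and 14.00 in WT (0.12). These differences are smaller than the scatter between probes of one gene. Cd247 encodes the zeta chain, which carries most of the receptor's phosphorylation motifs. Its brightest probe read 10.27 in Bach2 KO and 10.18 in WT (0.08), and its other probes differed by 0.39 and 0.17. It was the only member with several detected probes that was higher in Bach2 KO at all of them.

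The coreceptor and the accessory receptors of the T cell surface followed the same pattern. Cd4, which brings Lck to the receptor and was one of the sorting markers, had a log2 intensity of 8.32 in Bach2 KO and 8.33 in WT, a difference of -0.01. Cd2, an adhesion receptor for CD48 in mice, had 12.56 in Bach2 KO and 12.58 in WT (-0.02). Cd28, the main costimulatory receptor, was lower in Bach2 KO at each of its 3 probes, by -0.11 (12.19 in Bach2 KO, 12.30 in WT), -0.18 and -0.32. Cd6, a scavenger receptor family protein that tunes TCR signals, was lower at all 4 of its probes, by -0.13, -0.13, -0.16 and -0.36, with its brightest at 13.46 in Bach2 KO and 13.59 in WT. For Cd28 and Cd6 the brightest probe differed by less than the probe SD of 0.23, and 1 dimmer probe of each differed by more. Neither reached 1.5-fold at any probe.

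Of the kinases, Fyn and Zap70 were detected. Zap70, the kinase that docks on phosphorylated zeta chains, had 12.54 in Bach2 KO and 12.59 in WT (-0.05), and its other probes differed by -0.19 and -0.21. Fyn, the Src family kinase that acts beside Lck, had 9.63 in Bach2 KO and 9.71 in WT (-0.08), with a dimmer detected probe at 0.10 and the other probe not detected on either array. Txk, a Tec family kinase, was not detected on either array (detection p-value 0.256 in Bach2 KO and 0.206 in WT).

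Among the genes that set the activity of the Src family kinases, Ptprc gave different readings at its 2 probes. Ptprc encodes CD45, the receptor phosphatase that removes the inhibitory phosphate from Lck. Its brighter probe read 10.98 in Bach2 KO and 11.53 in WT (-0.54, from deposited intensities of 2030 in Bach2 KO and 2878 in WT). The other read 10.66 in Bach2 KO and 10.50 in WT (0.16). The probes of Ptprc thus differed by 0.71, the widest spread within any of the 12 members with several detected probes, and its direction was not settled by these data. The transcript is alternatively spliced, and the sources used here do not say which isoforms each probe reads. Csk, the kinase that adds the inhibitory phosphate, had 13.01 in Bach2 KO and 13.15 in WT (-0.14). Ptpn6 (SHP-1), a phosphatase that opposes proximal signalling, was lower in Bach2 KO at both probes, by -0.21 (11.19 in Bach2 KO, 11.40 in WT) and by -0.43. Ptpn6 is also abundant in myeloid cells. Granulocyte markers were lower in the Bach2 KO sample. Of the 3 detected markers on the myeloid list, 1 was at least 1.5-fold higher there and none 1.5-fold lower. The part of such cells in the Ptpn6 values was not tested. Ptpn22, a phosphatase that acts with Csk, had 12.07 in Bach2 KO and 12.11 in WT (-0.04) at its 1 detected probe. Pag1, the membrane anchor of Csk, was not detected on either array.

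**Figure D2:**
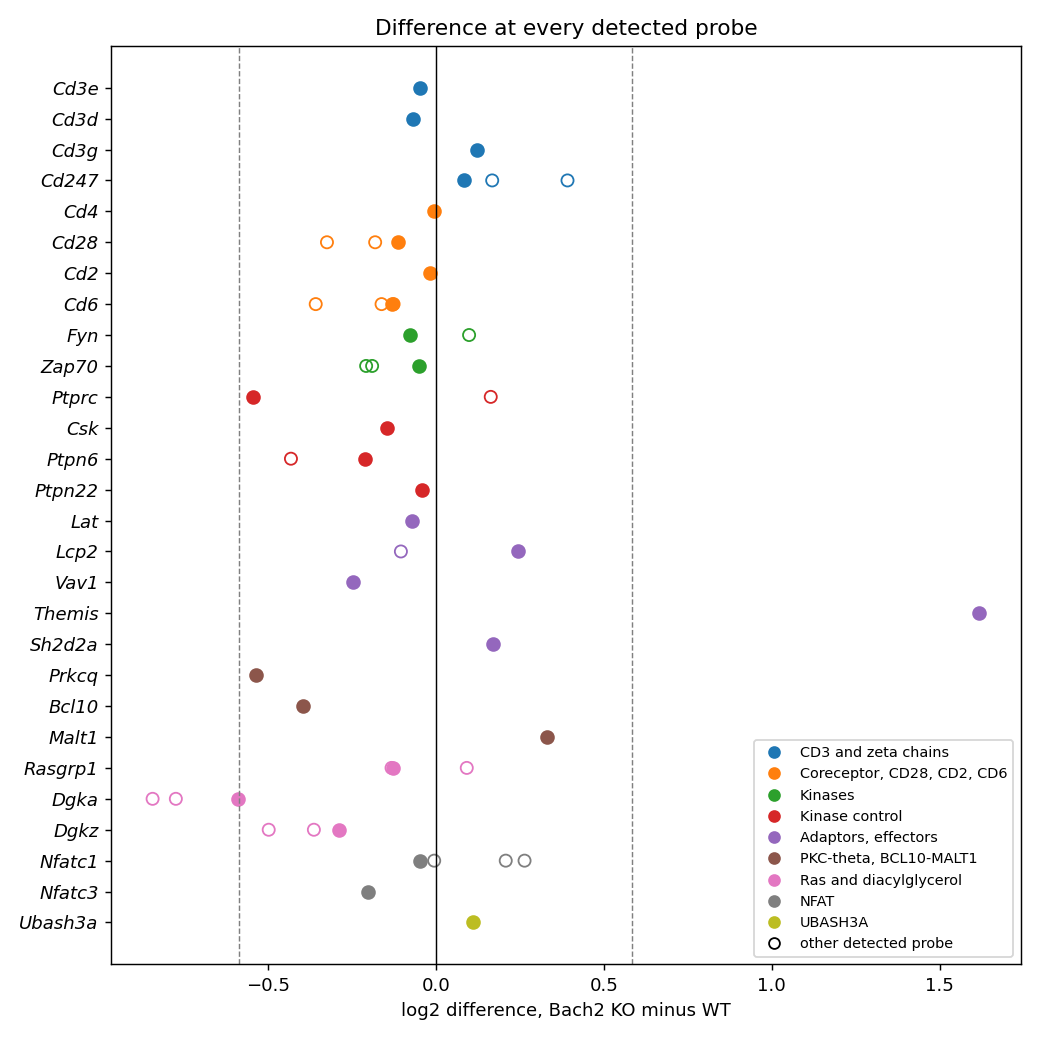
Log2 difference, Bach2 KO minus WT (x axis), at each of the 50 detected probes of the 28 detected genes, coloured by role, with filled circles for the brightest probe of a gene and open circles for its others. Dashed lines stand at 1.5-fold. Themis lies alone at 1.62, all 3 Dgka probes lie at or beyond the lower line, and the Ptprc probes fall on both sides of 0.

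The adaptors held the largest difference of the whole set. Themis had a log2 intensity of 9.46 in Bach2 KO cells and 7.85 in WT cells, from deposited intensities of 703 in Bach2 KO and 211 in WT, a difference of 1.62. With genes detected on 1 array placed at the lower bound of their fold, it ranked 55th from the top among the 7611 genes, and 0.723% of genes were as far up or farther. The value rests on 1 probe, and it ranged from 1.31 on the series matrix values to 1.70 with median scaling over the 10 alternative settings. The adaptors and effectors that work beside it and were detected differed by -0.25 to 0.24. Lat, the membrane scaffold, had 12.86 in Bach2 KO and 12.93 in WT (-0.07). Lcp2 had 11.53 in Bach2 KO and 11.28 in WT (0.24), but its other probe differed by -0.10. Vav1, which assembles on phosphorylated Lcp2, had 12.28 in Bach2 KO and 12.53 in WT (-0.25). Sh2d2a, which encodes the T cell specific adaptor TSAd, had 12.72 in Bach2 KO and 12.55 in WT (0.17). Grap2 (Gads), the bridge between Lat and Lcp2, and Plcg1 were not detected on either array, with detection p-values of at least 0.104.

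In the branch towards NF-kappaB the 3 genes went in different directions. Prkcq encodes protein kinase C-theta, which phosphorylates the CARMA1 scaffold. Its log2 intensity was 10.89 in Bach2 KO and 11.43 in WT (-0.53, 1.45-fold lower in Bach2 KO, deposited intensities 1910 in Bach2 KO and 2688 in WT), just inside the 1.5-fold line. Bcl10, the adaptor that polymerizes on CARMA1, had 10.44 in Bach2 KO and 10.84 in WT (-0.40). Malt1, the paracaspase that binds Bcl10, had 10.71 in Bach2 KO and 10.38 in WT (0.33). All 3 exceeded the probe SD of 0.23, as did 52.5% of all genes, and each was read by 1 probe. They kept their signs under the 10 alternative settings. The settings that change only the detection filter or average the probes could not alter a value from 1 probe.

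Both genes of the set that remove the diacylglycerol signal read lower in Bach2 KO cells. Dgka and Dgkz encode diacylglycerol kinases alpha and zeta, which convert diacylglycerol to phosphatidic acid and so limit Rasgrp1 and protein kinase C-theta, and all 6 of their probes were lower. Dgka had 12.59 in Bach2 KO and 13.18 in WT at its brightest probe (-0.59, deposited intensities 6329 in Bach2 KO and 9034 in WT). Its other probes read 11.72 in Bach2 KO and 12.56 in WT (-0.84), and 7.31 in Bach2 KO and 8.08 in WT (-0.77). Dgka thus lay on the 1.5-fold line at the brightest probe and beyond it at the other probes. On the same bounded values it ranked 510th from the bottom of 7611 genes, and 6.70% of genes were as far down or farther. The call at 1.5-fold was lost under 4 of 10 alternative settings, at -0.48 with median scaling, -0.56 with cyclic loess, -0.58 with an offset of 50 and -0.58 on the series matrix values. Dgkz had 11.81 in Bach2 KO and 12.10 in WT (-0.29), with its other probes at -0.50 and -0.36, all within 1.5-fold. On the bounded values 20.7% of genes were as far down as Dgkz or farther. By sign alone, 53.2% of all genes were lower in Bach2 KO. The 6 Dgka and Dgkz probes were also lower in Bach2 KO under each alternative setting that changes probe values. These were no normexp, median scaling, cyclic loess, offsets of 1 and 50, and the series matrix values. The other settings leave probe values as they are. Rasgrp1, the diacylglycerol-activated exchange factor for Ras, had 13.06 in Bach2 KO and 13.18 in WT (-0.13), and its other probes differed by 0.09 and -0.13. Sos1, the other Ras exchange factor of the set, was not detected on either array.

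**Figure D3:**
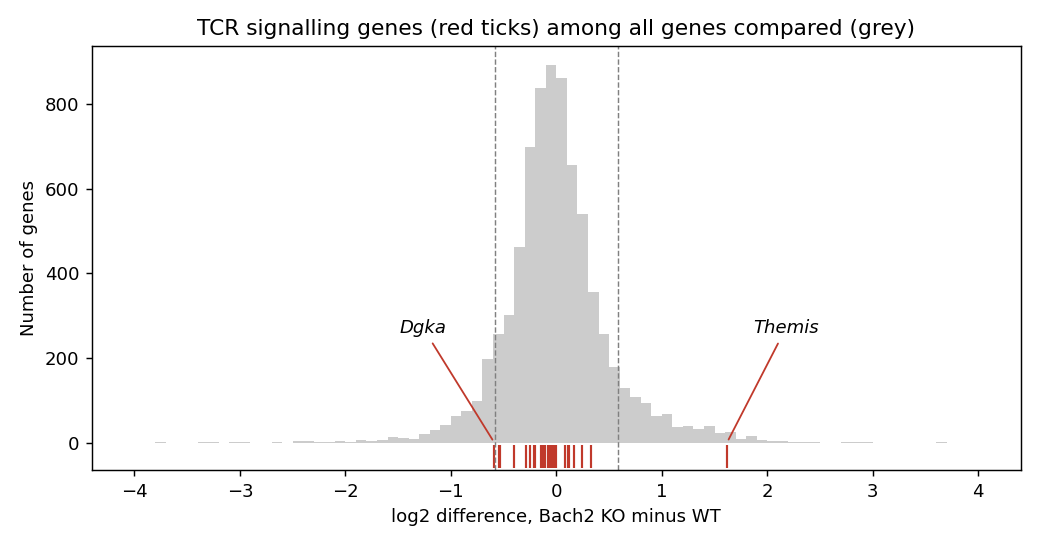
Histogram of the log2 difference, Bach2 KO minus WT (x axis), over the 7611 genes compared (y axis, number of genes, grey), with a red tick below the axis for each of the 28 detected TCR signalling genes and dashed lines at 1.5-fold. The ticks gather between -0.59 and 0.33 except for Themis at 1.62, and Dgka is the leftmost.

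Of the NFAT factors, which calcineurin sends to the nucleus, Nfatc1 had 11.42 in Bach2 KO and 11.47 in WT at its brightest probe (-0.05). Its 3 other detected probes differed by -0.0049, 0.21 and 0.26, and a further 2 probes were not detected. Nfatc3, read by 1 probe, had 9.08 in Bach2 KO and 9.28 in WT (-0.20). None of the 5 Nfatc2 probes was detected on either array, with a lowest detection p-value of 0.0865 in Bach2 KO and 0.0514 in WT. Among the proteins that end signalling, Ubash3a, which encodes the phosphatase-like protein STS-2, had 9.19 in Bach2 KO and 9.08 in WT (0.11). Cbl, a ubiquitin ligase, was not detected, with a detection p-value of 0.0489 in Bach2 KO and 0.229 in WT. An undetected probe can also be a poor probe, so no level was drawn for the 7 genes of this kind.

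Agreement between probes of one gene gives a further view of these differences. Of the 12 members with several detected probes, 6 were lower in Bach2 KO at all of them (Cd28, Cd6, Zap70, Ptpn6, Dgka and Dgkz), 1 was higher at all (Cd247) and 5 were mixed in sign (Fyn, Ptprc, Lcp2, Rasgrp1 and Nfatc1). Their pooled probe SD was 0.17, beside 0.23 over the 1734 genes of the array. Over all 50 detected member probes, 36 were lower and 14 higher. The share of all detected probes on the array that were lower was not computed. Nor was the agreement between probes counted over the 1734 genes, so these counts are not read as a trait of the members. The 53.2% of all genes lower in Bach2 KO is another unit, with each gene read at its brightest detected probe. The signs of the small differences depended on the scaling. With median scaling the brightest probe of Zap70 read 0.07. Those of Cd28 (-0.01) and Cd6 (-0.04) were close to 0. Those of Ptpn6 (-0.15), Dgkz (-0.20) and Dgka (-0.48) stayed lower in Bach2 KO, of which only Dgka exceeded the probe SD of 0.23. Probes of one gene share the RNA sample and the array, so they are not replicates of the genotype.

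Further genes of the pathway were taken from 6 lists that name 109 genes beyond the members. Of these, 91 had a probe and 72 were detected. None was at least 1.5-fold higher and 4 were at least 1.5-fold lower, namely Ly9, Rasa2, Nedd4l and Dok1, beside 8.15% higher and 6.77% lower over all genes. These counts rest on the brightest detected probe of each gene. A dimmer detected probe passed 1.5-fold upwards for Map2k2 (0.71), Icos (0.67) and Crk (0.60). One of Cd226 passed it downwards (-0.66). The median difference of the 72 was -0.09. Ly9, a SLAM family receptor, had a log2 intensity of 10.46 in Bach2 KO and 11.42 in WT (-0.96), with a second probe at -1.19. Rasa2, a GTPase-activating protein that turns Ras off, had 8.75 in Bach2 KO and 9.48 in WT (-0.73). Nedd4l, a ubiquitin ligase, had 8.24 in Bach2 KO and 8.86 in WT (-0.62). Dok1, an adaptor that recruits Ras inhibitors, had 5.97 in Bach2 KO and 6.57 in WT (-0.61), but its other detected probe differed by 0.13. The Bach2 KO reading of Dok1 lay close to the dimmest detected probe of that array (5.81). Under 5 of the 10 alternative settings only Ly9 and Rasa2 passed 1.5-fold.

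By list, the median difference ranged from -0.26 to 0.13, against -0.03 over all genes. Of 13 surface and transmembrane genes, 1 was at least 1.5-fold lower and none 1.5-fold higher, with a median of 0.13. Slamf6, another SLAM family receptor, differed by 0.48 and Icos, a costimulatory receptor, by 0.44, opposite in sign to Ly9. The other probe of Icos differed by 0.67. Of 18 detected kinases and adaptors 1 was at least 1.5-fold lower (median -0.13). None of 13 detected calcium and calcineurin genes passed 1.5-fold (median -0.08), with the calcium sensor Stim1 at -0.38 and the calcineurin catalytic subunits Ppp3ca and Ppp3cb at -0.07 and 0.10. None of 9 detected genes of the TRAF, TAK1 and IKK list passed it either (median -0.26), and Casp8 was lowest at -0.56. Of 8 detected Ras and MAP kinase genes 1 was at least 1.5-fold lower (median -0.23), and so was 1 of 11 detected phosphatases and ligases (median 0.10), with Ndfip1, an activator of Nedd4 family ligases, at 0.35.

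**Figure D4:**
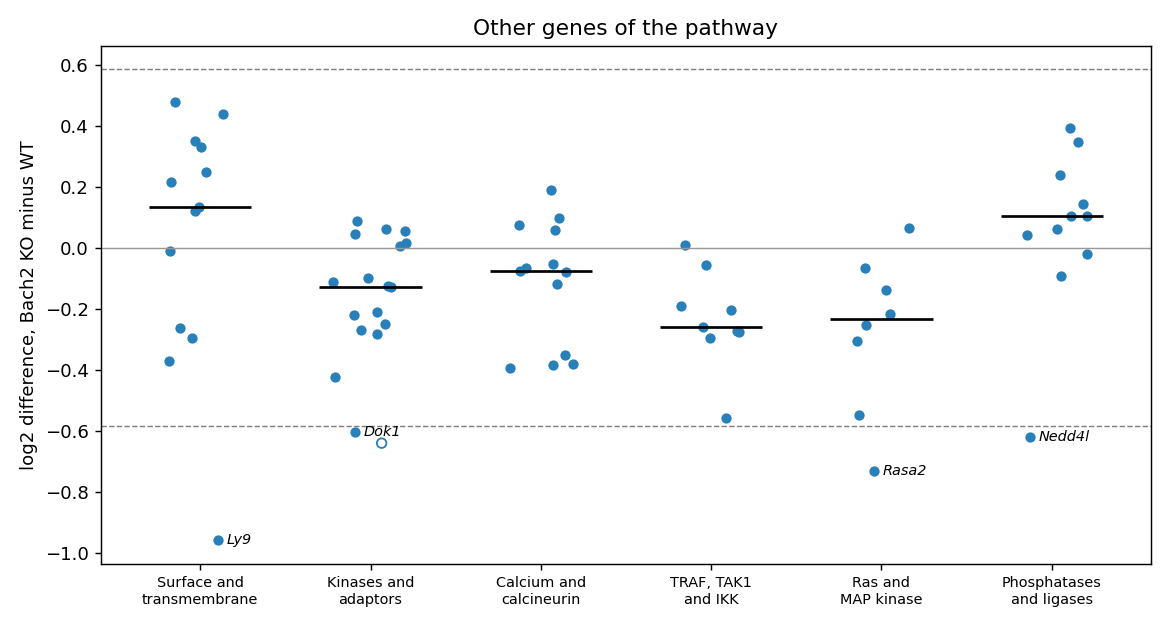
Log2 difference, Bach2 KO minus WT (y axis), of the 72 further detected pathway genes in 6 lists (x axis), 1 point per gene at its brightest detected probe, with black lines at list medians and dashed lines at 1.5-fold. The 4 genes past the lower line are named, and the open circle is Skap1, detected in WT only, whose bound of 1.28-fold lower in Bach2 KO kept it out of the count.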

How the data were processed

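A sample of each genotype was compared, 1 Illumina BeadChip array per genotype, labelled by the array maker's procedure per the labels' protocols. The authors deposited intensity values that their header calls non-normalized. Each has a deposited detection p-value. Of the intensities, 29.5% on the Bach2 KO array and 30.4% on the WT array were below 0, so background had been subtracted. The deposited series matrix holds straight-line functions of the same intensities (residuals at most 0.0091). The sources used here do not name the scanning software.

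Intensities went through neqc (limma 3.58.1, R 4.3.3), that is normexp background correction with noise inferred through the detection p-values, an offset of 16, quantile normalization between arrays and log2. The offset makes dim genes look more alike, and quantile normalization hides a shift of all genes. A gene was read at its brightest detected probe (p under 0.01). For a gene detected on 1 array, only the lower bound of its fold was counted, against the higher of its own value and the dimmest detected probe (log2 5.81 on the Bach2 KO array, 5.80 on the WT array). No test was possible. Background correction and quantile normalization were tried on simulated data.

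GEO's platform annotation gave the probes' genes, with 1719 of 25697 not listed there, and 1 listed name was updated through RefSeq. Promoter sequences are RefSeq's. The members and lists were chosen with earlier results of these data known. The text names all members, and pathway genes past 1.5-fold. Other pathway genes (Slamf6, Icos, Stim1, Ppp3ca, Ppp3cb, Casp8, Ndfip1, Skap1, Map2k2, Crk, Cd226) were chosen after their values were seen.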

Additional observations from a re-analysis of the deposited data

How the results depend on the processing

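The 10 alternatives were no normexp correction, median scaling, cyclic loess, offsets of 1 and 50, the series matrix values, a detection p-value under 0.05, no filter on dim probes, only genes detected on both arrays, and the mean of a gene's detected probes. Themis remained the 1 member at least 1.5-fold and 2-fold higher, and no member was 2-fold lower, under all 10. The count at least 1.5-fold lower, 1 in the main setting (Dgka), was 0 with median scaling, cyclic loess, an offset of 50 and the series matrix values. The count of further pathway genes at least 1.5-fold lower, 4 in the main setting, was 2 (Ly9 and Rasa2) with no normexp, median scaling, cyclic loess, an offset of 50 and the series matrix values. It was 3 with the mean of probes (without Dok1), 5 with a detection p-value under 0.05 or no filter (with Skap1), and 4 at an offset of 1, with Rasgrp2 in place of Dok1. The member median ranged from -0.07 to 0.02. Of 280 single-gene values, 278 moved by less than the probe SD, and Themis (1.31 on the series matrix values) and Ptprc (-0.19 with the mean of its probes) moved by more. The settings that change only the detection filter left the values of these members as they were. The mean of probes could not alter a gene with 1 detected probe. The causes were not tested. Median scaling also changed the split over all genes, to 9.78% at least 1.5-fold higher and 4.90% lower, beside 8.15% and 6.77%. No paired analysis was possible because each genotype had 1 array, and no replicate could be left out. Array number limits precision.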
